A study of Homo sapiens with 6 samples.

Results

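The proteasome genes described here are all rows of the deposited count table whose symbol begins with PSMA to PSMG followed by a number, together with POMP, ADRM1 and PSMC3IP. There were 49 of them among 18398 genes: 14 of the 20S core, 5 counted as immunoproteasome (PSMB8, PSMB9, PSMB10, PSME1 and PSME2), 20 of the 19S regulatory particle, 5 assembly factors of the core, and 5 others (ADRM1, PSME3, PSME4, PSMF1 and PSMC3IP). The 19S group includes PSMD5, PSMD9 and PSMD10, chaperones that help to assemble the particle. PSMA8 and PSMB11 were not analysed here. PSMC3IP carries the prefix but encodes HOP2, a recombination factor and no proteasome subunit. Expression was measured by sequencing of rRNA-depleted RNA from SUM159, a human breast cancer cell line of triple-negative, mesenchymal type. The control group was 3 libraries from SUM159 cells with pLVX, a lentiviral vector, and the other group was 3 libraries from SUM159 cells stably overexpressing POGK from pLVX, called POGK cells. All cells grew in Ham's F12 medium with serum, insulin and hydrocortisone. POGK derives from a pogo-type transposon and carries a KRAB domain, a module known for transcriptional repression. The stated aim was to find genes that POGK regulates. The sources used here do not say whether the stable cells are 1 clone or a pool, nor whether replicates are separate cultures, so the spread behind each p-value is that of these libraries alone and may be technical.

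The proteasome is the main protease of the cytosol and nucleus. Its 20S core is a barrel with outer rings of alpha subunits (PSMA) and inner rings of beta subunits (PSMB), and PSMB5, PSMB6 and PSMB7 hold the active sites. The 19S particle binds ubiquitin chains, removes them, and unfolds the substrate with a ring of ATPases (PSMC). In cells exposed to interferon, PSMB8, PSMB9 and PSMB10 replace the active-site subunits, and the activator PA28, made of PSME1 and PSME2, can cap the core. The resulting immunoproteasome is known for making peptides that MHC class I molecules present. When proteasome activity is short, the transcription factors NFE2L1 and NFE2L2, paired with small MAF proteins, are known to raise proteasome gene transcription through antioxidant response elements.

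Libraries held 27645789 to 33689230 counts. POGK itself was at 62.6, 77.3 and 66.9 CPM (the count of a gene relative to the library total, scaled by TMM) in the control libraries and at 743, 781 and 780 CPM in the POGK libraries. The control libraries differed from each other far more than the POGK libraries did, with a chi-square per gene of 22.5 to 49.7 against 1.36 to 2.62. The 6 mesenchymal markers, 4 of them lower and 2 higher in POGK cells, summed to 9455 to 11837 CPM in control and 5629 to 5690 CPM in POGK libraries. The luminal marker ESR1 had at most 8 counts and the epithelial marker EPCAM at most 10 counts in any library. Their lists' other members were not all near 0: the receptor ERBB2 was at 72.9 ± 5.73 and 85.6 ± 3.23 CPM, the keratin KRT18 at 125 ± 18.0 and 204 ± 3.58 CPM, and KRT8 at 342 ± 33.8 and 282 ± 4.74 CPM in control and POGK cells. Epithelial markers (4 of 5 in the table) summed to 429.99 to 491 CPM in control and 482 to 489.6 CPM in POGK libraries. Of the leukocyte markers, PTPRC had 7 to 22 counts in control and 47 to 72 counts in POGK libraries, and CD14 had 23 to 37 and 14 to 26 counts. Summed leukocyte markers (2 of 6 in the table) lay at 1.21 to 1.88 CPM in control and 1.79 to 2.46 CPM in POGK libraries, summed endothelial markers (3 of 4) at 5.39 to 7.48 and 4.56 to 5.03 CPM, and summed adipocyte markers (2 of 3) at 1.02 to 1.61 and 1.52 to 2.07 CPM. Their part in the results was not tested. In bulk RNA, a different share of cells and a different amount of RNA per cell cannot be told apart.

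Most proteasome genes were more abundant in POGK cells. Of the 49 genes, 40 rose, 2 fell and 7 did not pass edgeR's quasi-likelihood test at an adjusted p below 0.05. Over all 15889 genes tested, 32.7% rose and 33.3% fell at the same threshold, or 66.0% in either direction. The median log2 fold change of the proteasome genes was 0.75, and that of all genes tested was 0.0025. At least 2-fold rises were found for 10 of the 49 genes (9.58% of all genes tested). In 43 of the 49 genes the CPM values of both groups did not overlap (73.7% of all genes tested). Summed over all 49 genes, the level was 3926, 4407 and 3806 CPM in the control libraries and 6640, 6629 and 6609 CPM in the POGK libraries. Control replicate 2 was the control library nearest to the POGK libraries in this sum. It was the highest control library for 33 of the 40 genes that rose, and for 67.1% of all genes that rose. Without that library 40 of the 49 genes rose, and without any 1 POGK replicate 36 rose.

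**Figure D1:**
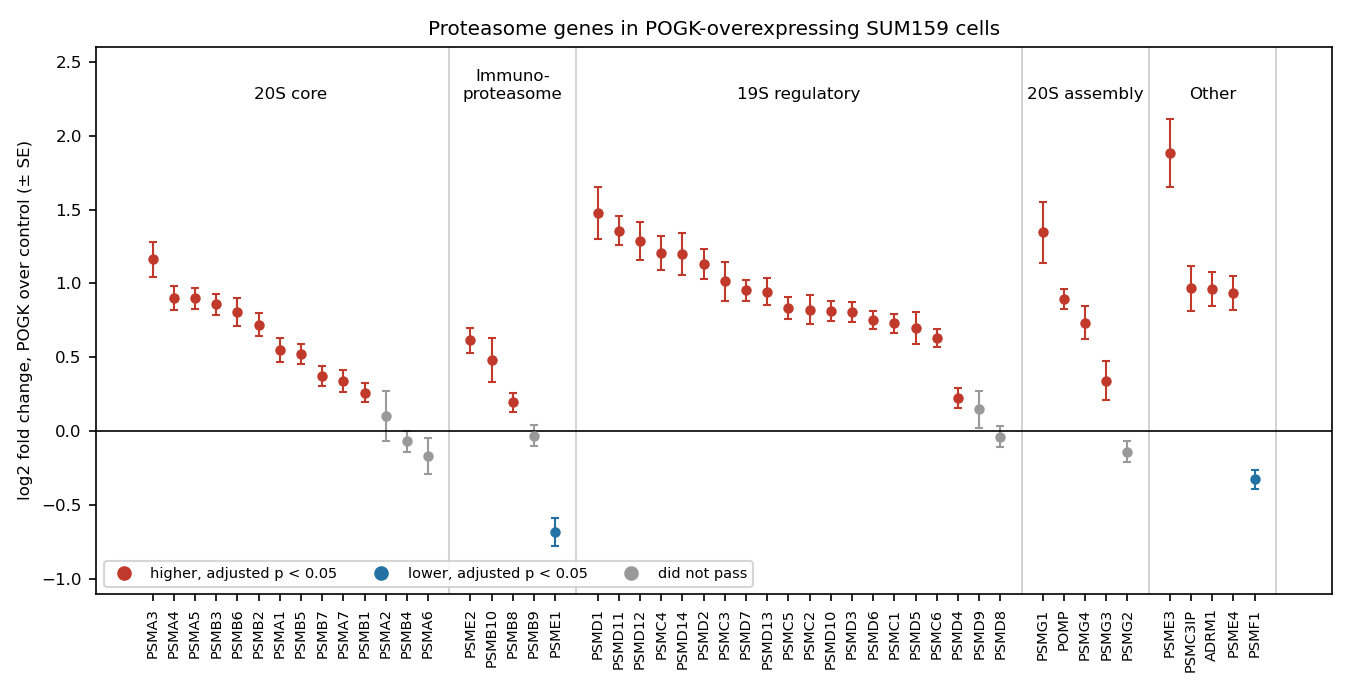
Log2 fold changes between POGK and control cells, positive where POGK cells were higher (edgeR, error bars are the standard error, 3 libraries each), are plotted for each of the 49 proteasome genes, by group. Of these, 40 lie above 0 and passed, PSME1 and PSMF1 lie below 0 and passed, and 7 in grey did not pass.

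Of the core, immunoproteasome, regulatory and assembly groups, the regulatory particle had the largest median change and the immunoproteasome genes the smallest. Regulatory particle genes rose in 18 of 20 cases with a median log2 fold change of 0.83, core genes in 11 of 14 cases with a median of 0.54, and assembly factors in 4 of 5 cases with a median of 0.73. No gene of these 3 groups fell. Some core genes share at least 20% of their transcript with another gene on the same strand. Without them, 10 of 11 core genes rose, with a median of 0.72. The regulatory median includes PSMD9, which shares exons too. Immunoproteasome genes rose in 3 of 5 cases and fell in 1, with a median of 0.20. Summed levels gave the same order. The 20 regulatory genes went from 1741 ± 183 to 3265 ± 17.3 CPM (SD, n = 3 each), a ratio of 1.88. The 14 core genes went from 1302 ± 81.97 to 1908 ± 9.42 CPM, a ratio of 1.47. The 5 immunoproteasome genes summed to 406, 359.95 and 356 CPM in control libraries and to 352, 349.6 and 349 CPM in POGK libraries. These sums and medians are descriptions, and differences between groups of genes were not tested.

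Among the regulatory particle genes, all 6 ATPases of the base (PSMC1 to PSMC6) rose, with log2 fold changes from 0.63 for PSMC6 to 1.21 for PSMC4. The largest rise was in PSMD1, a scaffold of the base that holds substrate receptors. Its level was 78.8, 133 and 86.7 CPM in the control libraries and 280, 280 and 270.5 CPM in the POGK libraries. The groups did not overlap, and control replicate 2 was the highest control. The log2 fold change was 1.48 ± 0.17 (SE; edgeR adjusted p = 1.21e-04). PSMD2, the other large scaffold of the base, went from 219 ± 31.5 to 479 ± 5.07 CPM.

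The lid, which carries the deubiquitinase, had 7 of 8 genes higher. PSMD11, a helical lid subunit, was at 83.4, 110 and 102 CPM in control and 252, 255 and 249 CPM in POGK libraries. PSMD12, another lid subunit of the same fold, was at 63.6, 94.1 and 71.7 CPM in control and 187, 190 and 185 CPM in POGK libraries. Both genes had every POGK library above every control library, at log2 fold changes of 1.36 and 1.29 and edgeR adjusted p-values of 1.14e-05 and 4.58e-05. PSMD14, the metalloprotease that cuts ubiquitin chains off the substrate, was at 71.2, 110 and 79.6 CPM in control and 196, 202 and 201 CPM in POGK libraries. It rose 2.30-fold (edgeR adjusted p = 1.14e-04).

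The other lid genes that rose had log2 fold changes from 0.75 for PSMD6 to 0.95 for PSMD7, with PSMD3 and PSMD13 between them. PSMD8 was the lid gene that did not pass. Its level was 177, 170 and 155 CPM in control and 165, 163 and 160 CPM in POGK libraries, and the groups overlapped. The log2 fold change was -0.04 (edgeR adjusted p = 0.66), and with library size alone as scaling it was 0.16 and passed at 0.0431. PSMD4, a ubiquitin receptor of the base, rose 1.17-fold, and lost its call when any 1 POGK replicate was left out, at adjusted p-values of 0.0595 to 0.0659. ADRM1, a ubiquitin receptor that docks on PSMD1, was at 38.0, 51.1 and 38.3 CPM in control and 83.4, 80.7 and 84.7 CPM in POGK libraries. It rose 1.95-fold, with no overlap of the groups (edgeR adjusted p = 1.12e-04). Of the 3 chaperones of base assembly counted among the regulatory genes, PSMD5 rose 1.63-fold and PSMD10 (gankyrin) 1.76-fold. PSMD9 did not pass (log2 fold change 0.15).

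In the core, 5 of 7 alpha subunits and 6 of 7 beta subunits rose. PSMA3, an alpha subunit, had the largest rise. Its level was 59.7, 84.8 and 66.4 CPM in control and 154, 159 and 161 CPM in POGK libraries, a log2 fold change of 1.17 (edgeR adjusted p = 4.99e-05). The alpha subunits PSMA4 and PSMA5 followed with rises of 1.87-fold each. PSMA4 was at 121, 136 and 113 CPM in control and at 231, 229 and 230 CPM in POGK libraries. PSMA5 was at 80.2, 86.6 and 75.0 CPM in control and at 147, 153 and 151 CPM in POGK libraries. For these 3 alpha subunits every POGK library was above every control library. PSMB4, a beta subunit without an active site, was at 220, 207 and 194 CPM in control and at 203, 192 and 197 CPM in POGK libraries, and the groups overlapped. Its log2 fold change of -0.07 missed the threshold and was 0.13 with library size alone. The other core genes that rose, PSMA1, PSMA7, PSMB1, PSMB2 and PSMB3, had values from 0.26 for PSMB1 to 0.86 for PSMB3 on the same scale, and PSMA2 (0.10) and PSMA6 (-0.17) did not pass.

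**Figure D2:**
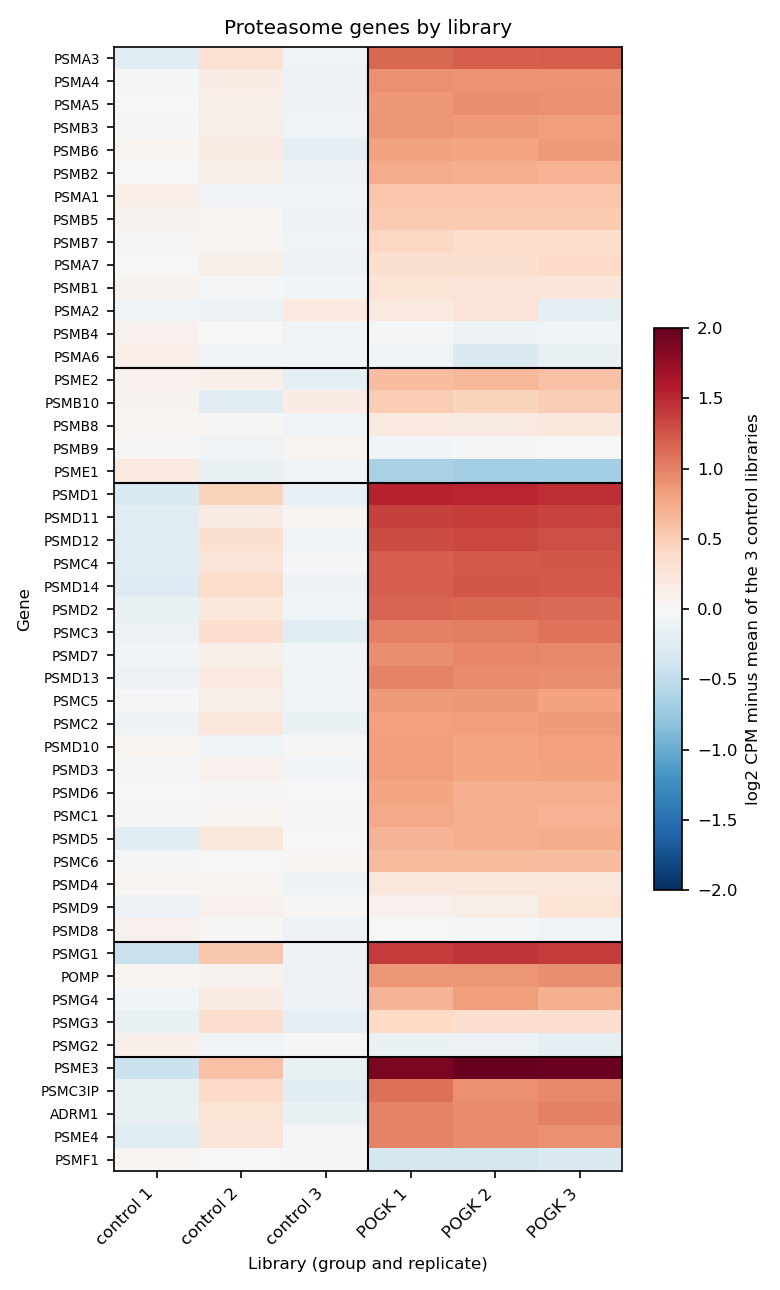
Each row is a proteasome gene and each column a library, and colour is log2 CPM minus the mean of the 3 control libraries. Black lines separate core, immunoproteasome, regulatory, assembly and other genes from top to bottom, and PSME1 and PSMF1 are the rows that are blue in all 3 POGK libraries and passed the test.

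The assembly factors help alpha and beta rings form. PSMG1, which pairs with PSMG2 in a chaperone of the alpha ring, was at 25.6, 50.3 and 32.5 CPM in control and 91.2, 93.7 and 91.5 CPM in POGK libraries. It rose 2.54-fold (edgeR adjusted p = 6.00e-04), and control replicate 2 was again the highest control. Its partner PSMG2 was at 72.8, 65.2 and 65.7 CPM in control and 62.0, 62.7 and 60.1 CPM in POGK libraries. The groups did not overlap, but the log2 fold change of -0.14 was not past the threshold (edgeR adjusted p = 0.109) and was 0.06 with library size alone. PSMG3 and PSMG4 form another chaperone pair. PSMG4 was at 9.86, 11.5 and 9.37 CPM in control and 16.3, 18.1 and 16.6 CPM in POGK libraries, a rise of 1.66-fold. PSMG3 was at 24.7, 34.4 and 24.2 CPM in control and 36.3, 34.7 and 34.7 CPM in POGK libraries. It passed narrowly (edgeR adjusted p = 0.046), and lost its call whenever a single library was left out, except for control replicate 2, at adjusted p-values from 0.0883 to 0.164. POMP, the maturation protein that is consumed as beta rings join, was at 90.2, 91.4 and 81.0 CPM in control and 161, 161 and 166 CPM in POGK libraries. It rose 1.86-fold (edgeR adjusted p = 1.54e-05).

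In 2 of the 3 active-site pairs the constitutive subunit had the larger fold change. PSMB5, which carries the chymotrypsin-like activity, was at 77.4, 76.6 and 68.2 CPM in control and 107, 106 and 106 CPM in POGK libraries. Its inducible counterpart PSMB8 was at 86.9, 86.4 and 80.4 CPM in control and 97.3, 95.8 and 97.4 CPM in POGK libraries. PSMB5 rose 1.44-fold and PSMB8 1.15-fold, and PSMB8 did not pass with DESeq2 (adjusted p of 0.0511), without control replicate 3 (0.0544) or without any 1 POGK replicate (0.0728 to 0.084). PSMB6, with the caspase-like activity, was at 41.2, 44.7 and 34.8 CPM in control and 69.8, 69.2 and 72.2 CPM in POGK libraries. It rose 1.75-fold (edgeR adjusted p = 1.08e-04). PSMB9, which takes its place, was at 51.9, 48.5 and 52.8 CPM in control and 49.3, 49.4 and 51.4 CPM in POGK libraries. The PSMB9 values of both groups overlapped, and its log2 fold change was -0.03, or 0.16 with library size alone at an adjusted p of 0.0777, neither past the threshold.

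Ratios within a library, which need no scaling between libraries, separated the groups for these 2 pairs. The log2 ratio of PSMB8 to PSMB5 counts was 0.17, 0.17 and 0.24 in control and -0.13, -0.15 and -0.13 in POGK libraries, a difference of -0.33. For PSMB9 to PSMB6 it was 0.33, 0.12 and 0.60 in control and -0.50, -0.49 and -0.49 in POGK libraries, a difference of -0.84. Both had a two-sided exact permutation p of 0.1, the smallest that 3 against 3 libraries allow, and 0.15 adjusted over the 3 pairs, so neither can pass a threshold of 0.05. The third pair overlapped between groups, with PSMB10 to PSMB7 at -5.45, -5.77 and -5.26 in control and -5.40, -5.40 and -5.36 in POGK libraries (exact permutation p = 0.7). That difference was 0.11, and -0.03 without control replicate 2. PSMB7, with the trypsin-like activity, rose 1.30-fold from 127, 130 and 117 CPM in control to 165, 160 and 160 CPM in POGK libraries. PSMB10 had 72, 74 and 90 counts in control and 140, 136 and 115 counts in POGK libraries, and rose 1.40-fold (edgeR adjusted p = 0.0191). It did not pass without any 1 POGK replicate, at adjusted p-values from 0.0542 to 0.0651, or in limma-voom with weights per group, at 0.0638. Per kilobase of transcript, the inducible subunits made up 34.1, 32.9 and 35.8% of the summed level of the 6 active-site genes in control libraries and 28.1, 28.4 and 28.7% in POGK libraries. PSMB10 shares 56.1% of its transcript with another gene on the same strand, and the effect on its ratio and on these shares was not tested.

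**Figure D3:**
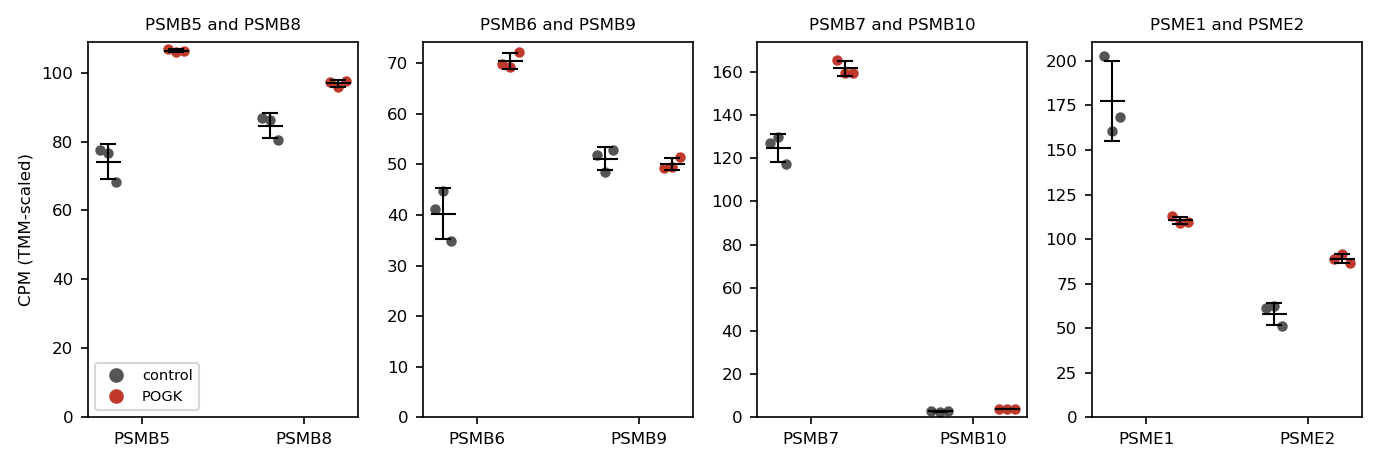
CPM in each library is shown for the constitutive and inducible active-site subunits and for both PA28 subunits, as points for 3 control and 3 POGK libraries with the mean and SD. PSMB6 rose while PSMB9 kept overlapping values, and PSME1 fell while PSME2 rose.

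The 2 subunits of the PA28 activator went in opposite directions. PSME1 (PA28 alpha) was at 203, 160 and 169 CPM in control and 113, 109 and 110 CPM in POGK libraries. It had the largest fall of the 49 genes, 1.60-fold (edgeR adjusted p = 2.31e-04), with every POGK library below every control library. PSME2 (PA28 beta) was at 61.4, 62.2 and 51.0 CPM in control and 89.1, 91.5 and 86.7 CPM in POGK libraries, a rise of 1.53-fold (edgeR adjusted p = 2.84e-04). Per kilobase, PSME1 was at 184 ± 23.2 and PSME2 at 73.4 ± 7.87 CPM in control cells, and in POGK cells the levels were 115 ± 2.10 and 112 ± 3.04 (SD, n = 3 each). The log2 ratio of PSME2 to PSME1 counts was -1.72, -1.37 and -1.72 in control and -0.34, -0.25 and -0.34 in POGK libraries. This ratio was chosen after its values were seen and has no test. Their canonical start sites lie 10416 bases apart on chromosome 14, on opposite strands. PSME2 has 6 annotated pseudogene copies and PSME1 none, so reads of PSME2 could be split among copies.

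The other activators rose. PSME3 (PA28 gamma), which forms the nuclear activator ring, was at 53.5, 109 and 65.1 CPM in control and 267, 290 and 285 CPM in POGK libraries. It had the largest rise of the 49 genes, 3.69-fold, at the 98.3 percentile of log2 fold changes over all genes tested (edgeR adjusted p = 1.93e-04). Its control values were uneven, with replicate 2 highest, and no control library reached a POGK library. PSME4 (PA200), a nuclear activator linked to histone turnover, was at 91.4, 129 and 106 CPM in control and 214, 207 and 203 CPM in POGK libraries, a rise of 1.91-fold. PSMF1 (PI31), named for inhibiting the 20S core in the test tube, was at 156, 151 and 149 CPM in control and 119, 120 and 124 CPM in POGK libraries. It fell 1.25-fold (edgeR adjusted p = 0.00154), and with library size alone it did not pass, at a log2 fold change of -0.13 and an adjusted p of 0.0745. PSMC3IP, the recombination factor, was at 18.6, 26.9 and 17.6 CPM in control and 44.2, 39.1 and 40.2 CPM in POGK libraries, a rise of 1.96-fold. On the opposite strand, exons of another gene cover 57.2% of the PSMC3IP transcript, and the strand setting of the counting is not given in the sources used here.

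Levels were compared between genes only as CPM per kilobase of the canonical GENCODE transcript. Whether that transcript is the main one in these cells was not tested, and each level depends on its length. Core genes ranged in control cells from 2.51 for PSMA2 to 226 for PSMB4. The 4 lowest control levels of the 49 genes, those of PSMD9 (1.89), PSMA2, PSMB10 (2.83) and PSMA6 (7.03), belonged to genes whose exons are shared with another gene on the same strand. At least 20% of the transcript is shared in this way for 5 of the 49 genes: PSMA2 (100%), PSMA6 (81.4%), PSMA1 (67.0%), PSMB10 (56.1%) and PSMD9 (28.8%). PSMA2 had 85 to 155 counts per library, PSMA6 191 to 244, PSMD9 118 to 201 and PSMB10 72 to 140. Of these 5 genes, 2 rose and 3 did not pass, while of the 44 others 38 rose, 2 fell and 4 did not pass. How the authors' counting treated reads in shared exons is not given in the sources used here, and its part in these low values was not tested. PSMC1, with 13 annotated pseudogene copies and 83.2% of its transcript overlapped on the opposite strand, had the lowest control level of the remaining regulatory genes, at 9.77.

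The genes most abundant per kilobase in control cells had smaller changes at the median. A threshold of 100 CPM per kilobase, chosen after the values were seen, was passed by 8 genes: PSMB4, PSME1, PSMA7, PSMB1, PSMB7, PSMB3, PSMD8 and PSMD4. Of these, 5 rose, 1 fell, none rose 2-fold, and the median log2 fold change was 0.24. Of the 36 genes below it without such same-strand sharing, 33 rose, 10 of them at least 2-fold, with a median of 0.86. Genes overlapped on the opposite strand were kept, among them PSMC1, PSMC3IP, PSMD7 (51.6%) and ADRM1 (26.7%). Over all genes tested that had a transcript length, 15.9% of the 654 above the same threshold rose, against 33.5% of those below it. Of the 654, 416 fell, and the median log2 fold change was -0.49, against 0.021 below the threshold. A lower median at high control levels was thus seen over all genes tested and not only in proteasome genes. Control levels enter both this split and the fold change, so the split by itself favours lower fold changes above the threshold. PSMA3, for example, was at 73.6 in control and 165 in POGK cells, and counted as below it. How much of the difference comes from the split was not tested. Among the 11 core genes without same-strand sharing, levels spanned 10.7-fold in control and 5.75-fold in POGK cells. For the 19 regulatory genes without same-strand sharing the span was 11.3-fold and 10.2-fold, with PSMC1 the lowest in both groups. With the genes of shared exons included, it was 89.96-fold and 84.3-fold for the core and 58.4-fold and 78.4-fold for the regulatory genes. All these spans depend on the canonical lengths, for example 918 bases for PSMB4 and 3815 bases for PSMA5. In plain CPM, PSMB4 was at 207 and PSMA5 at 80.6 in control cells.

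**Figure D4:**
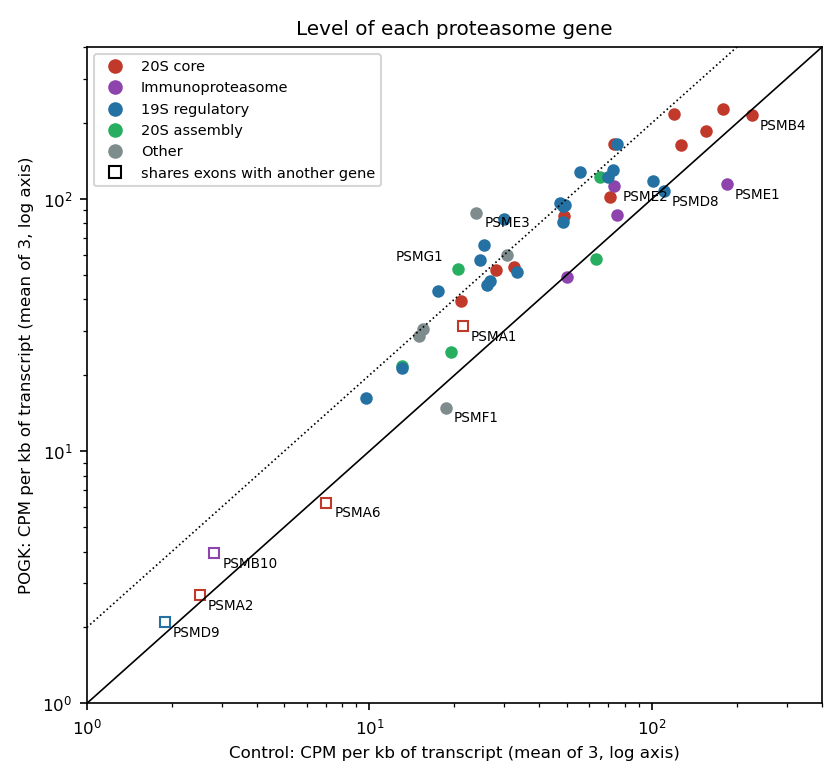
The mean level of each of the 49 genes, in CPM per kilobase of transcript, is plotted for control (x, log axis) against POGK cells (y, log axis). The solid line marks equal levels and the dotted line a 2-fold rise. Open squares are the 5 genes that share at least 20% of their transcript with another gene on the same strand.

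Promoters were read from RefSeq (build GRCh38.p14), as 250 bases before to 50 bases after the start, for 43 of the 49 genes. PSMA7, PSMB1, PSMB6, PSMB7, PSMD4 and PSMG3 had no entry. The core of the antioxidant response element, TGACNNNGC on either strand, was found in 14 of the 43 windows (32.6%), against 13.3% of all 35116 promoters and 15.3% of the promoters of genes tested. Of the 14 genes with it 10 rose and 1 fell, with a median log2 fold change of 0.83, and of the 29 without it 24 rose and 1 fell, with a median of 0.81. CCAAT, the letters of the NF-Y box, was found on either strand in 20 of 43 windows (46.5%), against 34.6% of all promoters and 37.0% of those of genes tested. Of the 20 genes with it 17 rose and none fell, and of the 23 without it 17 rose and 2 fell. A match to these letters is a description and not a binding site. The stretches below, 59 bases each and read 5′ to 3′ on the strand of the gene, show the match in capitals for a core subunit, a pair of lid subunits, a ubiquitin receptor and an assembly factor that rose, and for PSME1, which fell. They lie upstream of the start at chr17:38752612-38752670 (plus strand) for PSMB3, chr17:39980745-39980803 (plus) for PSMD3, chr17:67366709-67366767 (minus) for PSMD12, chr20:62302734-62302792 (plus) for ADRM1, chr21:39183601-39183659 (minus) for PSMG1 and chr14:24136083-24136141 (plus) for PSME1.
PSMB3: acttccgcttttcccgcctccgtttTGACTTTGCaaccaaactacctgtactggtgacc
PSMD3: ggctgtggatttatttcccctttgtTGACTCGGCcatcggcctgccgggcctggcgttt
PSMD12: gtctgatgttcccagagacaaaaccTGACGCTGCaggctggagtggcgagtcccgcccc
ADRM1: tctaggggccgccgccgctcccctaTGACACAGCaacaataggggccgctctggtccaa
PSMG1: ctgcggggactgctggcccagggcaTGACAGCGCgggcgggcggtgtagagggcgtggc
PSME1: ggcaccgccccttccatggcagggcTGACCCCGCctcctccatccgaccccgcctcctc

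The first base of the match lies 104 bases before the start in PSMB3, 37 in PSMD3, 165 in PSMD12, 137 in ADRM1, 183 in PSMG1 and 86 in PSME1. Log2 fold changes of these genes were 0.86, 0.81, 1.29, 0.96, 1.35 and -0.68 in the same order.

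Among 14 genes of factors known to act in proteasome gene transcription, 3 rose and 6 fell, with a median log2 fold change of -0.09. These are 21.4% and 42.9% of the list, against 32.7% and 33.3% of all genes tested, and the share called in either direction was near the 66.0% of all genes. NFE2L1 and NFE2L2, chosen after their values were seen, were both lower, while NFE2L3 in the same list was higher. NFE2L3 rose 1.25-fold, with no overlap of the groups (edgeR adjusted p = 0.00319). NFE2L1 was at 585, 555 and 468 CPM in control and 357, 348 and 353 CPM in POGK libraries, a fall of 1.52-fold (edgeR adjusted p = 4.51e-04). NFE2L2 fell 1.49-fold. MAFF, a small MAF partner, fell 4.75-fold from 141 ± 42.3 to 29.6 ± 1.30 CPM, and KEAP1, which marks NFE2L2 for degradation, rose 1.87-fold from 33.6 ± 2.32 to 62.8 ± 1.64 CPM (SD, n = 3 each). These are mRNA levels, and NFE2L1 and NFE2L2 are known to be controlled largely as proteins.

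Enzymes that activate ubiquitin and its relatives rose in 7 of 9 cases and fell in none, with a median of 0.57. Over all genes tested, 32.7% rose and 33.3% fell. NAE1, of the enzyme that activates NEDD8, rose 2.27-fold, and UBA6, an alternative ubiquitin-activating enzyme, rose 2.14-fold.

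Factors that bind the proteasome were mixed, with 9 of 18 higher, 3 lower and a median of 0.15. These are 50% and 16.7% of the list, against 32.7% and 33.3% of all genes tested. The share called in either direction was near that of all genes tested. USP14, a deubiquitinase docked on the base, rose 2.04-fold from 77.9 ± 14.4 to 159 ± 2.89 CPM, and UBQLN2, a shuttle of ubiquitinated proteins, rose 1.68-fold. SEM1, the smallest lid subunit, whose symbol lacks the prefix, was chosen after its values were seen and did not pass (log2 fold change -0.17). Among p97 and its cofactors, which extract and unfold ubiquitinated proteins, 8 of 16 rose and 6 fell, or 50% and 37.5%, against 32.7% and 33.3% of all genes tested. VCP, the p97 ATPase itself, rose 1.78-fold from 251 ± 6.80 to 447 ± 4.87 CPM, and the cofactor UBXN6 fell 2.18-fold.

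The COP9 signalosome, a relative of the lid, had 7 of 10 genes higher and 1 lower, against 32.7% and 33.3% of all genes tested, with a median log2 fold change of 0.35. Its subunits GPS1 and COPS7B rose 1.73-fold and 1.84-fold. The CCT chaperonin, which folds actin and tubulin, had 7 of 8 genes higher and none lower, against the same shares of all genes tested. Its median was 0.68, and CCT6A and CCT5 rose 1.91-fold and 2.02-fold.

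Genes of interferon response and peptide loading, which act with the immunoproteasome, went mostly the other way, with 14 of 20 lower, 3 higher and a median of -0.46. Among all genes tested, 33.3% were lower and 32.7% higher. HLA-C fell 2.32-fold from 411 ± 59.4 to 177 ± 0.20 CPM and IFNGR1, the interferon gamma receptor chain, fell 1.66-fold. HLA genes are similar in sequence to each other, so single members are uncertain. TAP1, a peptide transporter whose canonical start lies 488 bases from that of PSMB9 on the opposite strand, was chosen after its values were seen. It was at 217, 183 and 195 CPM in control and 126, 118 and 121 CPM in POGK libraries, a fall of 1.63-fold (edgeR adjusted p = 8.25e-05), whereas PSMB9 did not pass. Likewise chosen with its values known, NLRC5, a transactivator of class I genes, rose 1.42-fold (edgeR adjusted p = 3.83e-04). The number of genes in the list that rose was 2 under the filter of 1 CPM in 3 libraries and 2 without any 1 library other than control replicate 2. The number that fell was 10 with library size alone as scaling, and 11 or 12 without any 1 POGK replicate.

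The authors' deposited table called 39 of the 49 proteasome genes higher and 2 lower. It gave the same call as edgeR for 48 of them. The exception was PSMG3, for which the authors' deposited table lists 0.0918 as the adjusted p.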

How the data were processed

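The 6 libraries were grouped by their labels. Per the labels' protocols, reads of rRNA-depleted libraries were aligned to hg38, and featureCounts, STAR, Trimmomatic, deepTools and SAMtools are named, without versions, in the submitters' processing notes. The authors deposited raw counts per Ensembl gene, which were used for all tests. The authors' deposited signal columns, judged by their values, are these counts scaled by a single factor in each library, and were not tested. The log2 fold change and adjusted p-value of the authors' deposited table were used only where that table is named. The lowest total count over the 6 libraries was 21, and the table held 18398 genes.

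Groups were compared with the quasi-likelihood test of edgeR 4.0.16 (R 4.3.3), using TMM scaling and robust estimation. Genes passed edgeR's own low-count filter in 15889 cases, over which p-values were adjusted by Benjamini-Hochberg. All 49 proteasome genes passed the filter. Standard errors came from the F statistic. The test assumes an equal spread in both groups. Alternatives were DESeq2 1.42.0, limma-voom (limma 3.58.1), the same with weights per group, other scalings and filters, a replicate block, and leaving out each library. Log2 ratios used counts plus 0.5. Transcript lengths and shared exons came from GENCODE 44. The script was tested on simulated counts with few changed genes, evenly up and down, and an equal spread in both groups. These data have more changed genes and an unequal spread, so the simulation does not show how the test behaves here.

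The proteasome genes, their groups and the related lists were chosen with earlier results of these data known. The rule for named genes took the active-site pairs, activators, PSMF1, assembly factors, PSMD14, ADRM1 and PSMC3IP, the 3 called core and regulatory genes with the largest change in each direction, and the 2 genes with the smallest adjusted p of each related list. Genes beyond it are given to account for every proteasome gene or are named as chosen later. Some genes of the related lists are not reported here.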

Additional observations from a re-analysis of the deposited data

How the results depend on the processing

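With library size alone as scaling, the median log2 fold change of all genes moved from 0.0025 to 0.19, and those of all 49 proteasome genes, core, immunoproteasome, regulatory and assembly genes became 0.94, 0.73, 0.39, 1.02 and 0.93. The number of proteasome genes that fell became 1. Under that scaling PSMA6 (0.027), PSMB4 (0.13), PSMB9 (0.16), PSMD8 (0.16) and PSMG2 (0.057), none of which had passed, turned positive. With 1 library left out PSMD8 ranged from -0.093 to 0.0096, positive without control replicate 1. With 1 library left out, immunoproteasome genes that rose numbered 1 to 3, and proteasome genes that rose 36 to 40, and the difference in the PSMB10 to PSMB7 ratio ranged from -0.030 (without control replicate 2) to 0.22. The cause was not tested. Deviations of libraries with the same replicate number correlated at 0.173, 0.0809 and -0.00755, and those with different numbers at -0.167 to 0.0926. With 3 libraries per group, these values cannot decide whether replicate numbers pair the libraries. With the replicate block, 40 proteasome genes rose and 2 fell. Transcripts with few counts (PSMA2, PSMA6, PSMB10 and PSMD9) limit what could be detected.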

Other observations

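All 8 of the proteasome genes on chromosome 17 rose, among them PSME3, PSMD11, PSMD12 and PSMC5, with a median log2 fold change of 0.91. All genes tested on that chromosome had a median of 0.13, and 38.8% of them rose. The 7 proteasome genes on chromosome 14 include PSME1, which fell, and PSMA6, which did not pass, and 5 of them rose, where 36.3% of all genes tested on chromosome 14 rose. Of the 4 on chromosome 6, PSMB1, PSMB8 and PSMG4 rose and PSMB9 did not pass, with a median of 0.23 against -0.17 for all genes tested there. These counts were chosen after the values were seen and have no test.

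Replicate values of the proteasome genes were tighter in POGK than in control cells, with a median coefficient of variation of 2.00% against 8.51%. Over all genes tested these medians were 4.44% and 13.5%.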
